A study of Homo sapiens with 4 samples.

Results

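The genes described here were 9 members of the complement system, chosen by name from the 48162 genes of the deposited table: the secreted proteases and components C1R, C1S, C3, CFB and CFI, the secreted inhibitor SERPING1, and the membrane regulators CD46, CD55 and CD59. They were measured by RNA-seq in MDA-MB-231, an established human breast cancer cell line. Cells received MGH-CP1, a TEAD palmitoylation inhibitor, or its vehicle (DMSO), for 24 h, with 2 libraries in each group, and nothing else differed between the groups by their labels. The sample labels give the dose of MGH-CP1 as 10 µM, whereas the methods print 10 mM. Only 1 line and 1 time point were measured, and no label says whether the 2 libraries of a group came from separate cultures, so the p-values reflect the spread between these libraries, which may be technical. Values are FPKM, the fragments on a gene scaled to its length and to the total of its library.

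Complement is a cascade of blood and tissue proteins that marks cells and microbes for removal. In its classical arm the proteases C1r and C1s start the cascade, in its alternative arm factor B amplifies it, and both converge on C3, the central component whose cleavage coats a surface. Nucleated cells protect themselves with membrane proteins that dismantle the cleaving enzymes or stop the final pore, and carcinoma cells are known both to make complement components and to carry these shields.

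The libraries differed in depth. Fragments on genes numbered 25455533 and 25508824 in vehicle but 17997221 and 17577930 after MGH-CP1, of which mitochondrial genes took 0.447% and 0.418% in vehicle and 1.57% and 1.53% after MGH-CP1. VIM, the mesenchymal filament expected in this line, had 281 and 267 FPKM in vehicle and 259 and 262 FPKM after MGH-CP1. ESR1 and PGR, the hormone receptors this line lacks, had at most 4 fragments in any library. ERBB3 and CDH1, also listed as lacking in this line, were detected. ERBB3 had 1.10 and 1.08 FPKM in vehicle and 1.92 and 1.66 FPKM after MGH-CP1, and was called higher (adjusted p = 0.0191 from limma). CDH1 stayed under 1 FPKM, with 0.363 and 0.289 FPKM in vehicle and 0.638 and 0.572 FPKM after MGH-CP1. In MGH-CP1 replicate 2 the 4 hepatocyte markers (ALB, APOA1, TTR, APOB) summed to 3.19 FPKM, against 0.391 in MGH-CP1 replicate 1 and 0.0960 and 0.163 in vehicle, so this library stood apart. Most of that sum was ALB, the plasma protein albumin, at 2.56 FPKM there and 0.0737 FPKM in MGH-CP1 replicate 1, with no fragment in vehicle. Hepatocytes are a main source of plasma complement, so values without that library are given for the members.

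The 3 membrane regulators and 5 of the 6 secreted members lay higher after MGH-CP1, without overlap between the groups, and with larger ratios for the secreted members. Of the 14443 genes with a mean of at least 10 fragments, 39.9% also had both MGH-CP1 libraries above both vehicle libraries. More cells that express a gene and more of its RNA per cell cannot be told apart in such bulk samples. In vehicle the level per length fell in the order CD59, CD55, CD46, C3, C1R, CFI, C1S, CFB and SERPING1, from 111 ± 1.90 FPKM for CD59 to 0.0264 ± 0.0373 FPKM for SERPING1 (SD, n = 2). The order of the means after MGH-CP1 was the same. Neighbours in this order did not overlap between their libraries, except CFI and C1S in vehicle, whose ranges did. Testing was restricted to the 12080 genes whose mean over the 4 libraries reached 1 FPKM, among them 6 of the 9 members. CFI passed this filter only through its values after MGH-CP1. These 6 were called higher by limma (two-sided, adjusted p below 0.05), in a comparison where 27.1% of the genes tested were called higher and 23.8% lower. Since the filter favours a gene that is high in a single group, nothing is read from that count. The calls depended on pooling the variance over genes. Without that, none of the 6 was called, with adjusted p of 0.0555 to 0.113 from an ordinary t test per gene. In that t test 9 of the 12080 genes tested were called higher and 4 lower. The plot of all genes tested shows where the 6 members lay.

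**Figure D1:**
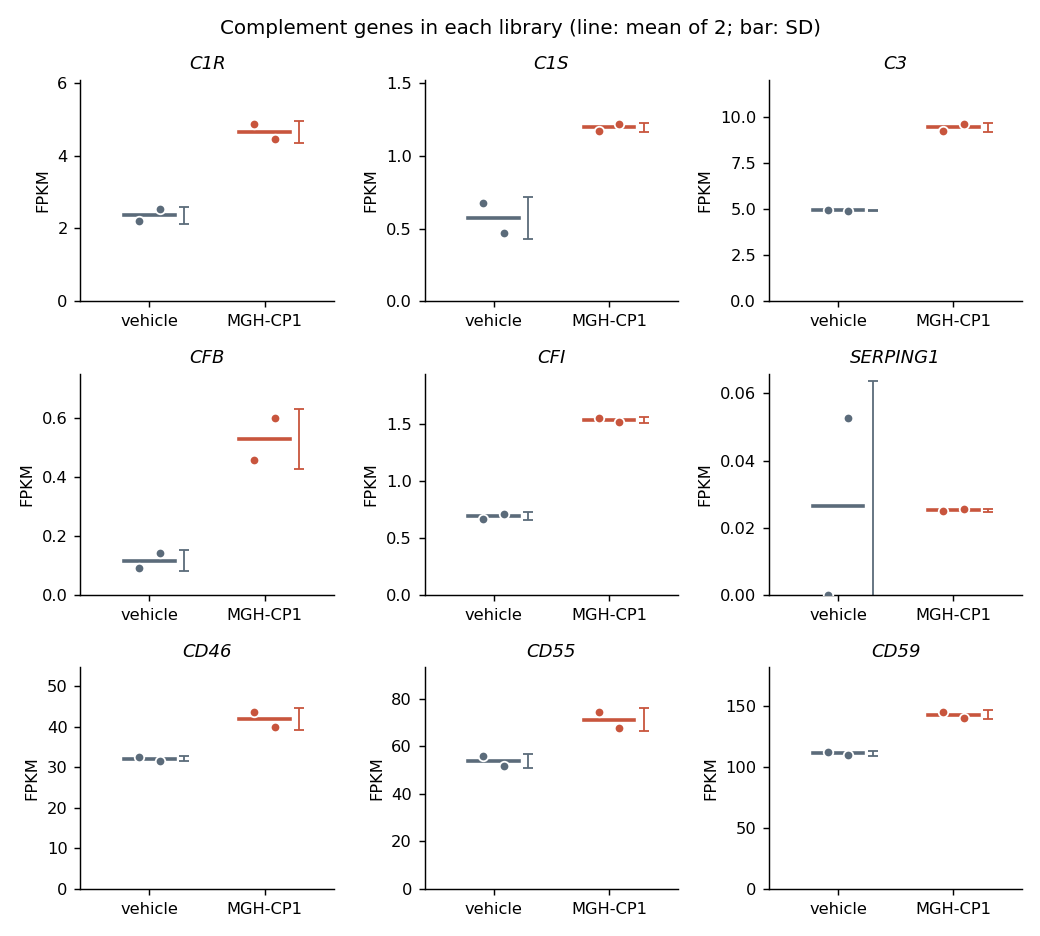
FPKM of the 9 complement genes in each of the 2 vehicle control and 2 MGH-CP1 libraries (points), with the group mean (line) and SD (bar beside it); each panel has its own axis from 0. In 8 panels both MGH-CP1 points lie above both vehicle points, and in the SERPING1 panel they overlap.

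C3 (ENSG00000125730, minus strand of chromosome 19, 6677715 to 6730573 in the table's coordinates, for which the submitters' processing notes name the build hg19) is the protein on which all complement arms meet. It had 4.97 and 4.91 FPKM in the vehicle libraries and 9.28 and 9.64 FPKM after MGH-CP1. The groups were far apart relative to the spread within each. The ratio of the mean FPKM was 1.92, and the log2 fold change, here always on the log2(FPKM + 1) scale, was 0.82 (SE 0.07, adjusted p = 8.27e-05 from limma). Of the genes tested, 3.42% had a larger log2 fold change than C3. Without MGH-CP1 replicate 2, which held most of the albumin fragments, the log2 fold change of C3 was 0.79.

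C1R and C1S encode the paired serine proteases of the first complement complex and lie beside each other on chromosome 12. C1R (ENSG00000159403, minus strand, 7187513 to 7245203) had 2.19 and 2.52 FPKM in vehicle and 4.87 and 4.44 FPKM after MGH-CP1. Both MGH-CP1 libraries lay above both vehicle libraries, with a log2 fold change of 0.75 (SE 0.10, adjusted p = 4.99e-04 from limma). Without MGH-CP1 replicate 2 it was 0.81 (adjusted p = 0.00249 from limma). C1S (ENSG00000182326, plus strand, 7096351 to 7178336) had 0.677 and 0.472 FPKM in vehicle and 1.17 and 1.22 FPKM after MGH-CP1, also without overlap, and MGH-CP1 replicate 1 alone was above both vehicle libraries. Its mean over the 4 libraries, 0.886 FPKM, was under the filter, so it was not tested in the main comparison. C1R exceeded C1S per length 3.24 and 5.35 times in vehicle and 4.15 and 3.64 times after MGH-CP1, ranges that overlapped.

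SERPING1 (ENSG00000149131) encodes the C1 inhibitor, the serpin that inactivates C1r and C1s. It was at the limit of detection, with 0 and 3 fragments in vehicle and 1 fragment in each MGH-CP1 library. The 3 fragments that a count of 0 allows correspond to 0.0528 FPKM in vehicle replicate 1. No change of SERPING1 was detectable at this depth, and its level was far below that of the proteases it inhibits.

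CFB and CFI act on C3 in opposite ways: factor B forms the alternative-pathway convertase, and factor I cuts and inactivates C3b with the help of cofactors such as CD46. CFI (ENSG00000205403, minus strand of chromosome 4, 110661852 to 110723335) had 0.664 and 0.712 FPKM in vehicle and 1.55 and 1.51 FPKM after MGH-CP1. CFI passed the filter only through its values after MGH-CP1, so nothing is read from its adjusted p of 0.00486 from limma. The groups did not overlap, and the log2 fold change was 0.59 (SE 0.12). At such low levels the added 1 FPKM compresses the value, which was 1.05 with a pseudocount of 0.1. Without MGH-CP1 replicate 2 it was 0.60 on the main scale. CFB (ENSG00000243649, plus strand of chromosome 6, 31895475 to 31919861) had 0.0913 and 0.142 FPKM in vehicle and 0.459 and 0.602 FPKM after MGH-CP1. The higher MGH-CP1 value was that of replicate 2, and replicate 1 alone was also above both vehicle libraries. These values rest on 9 and 14 fragments in vehicle and 32 and 41 after MGH-CP1. CFB had the largest ratio among the members, 4.56 for the mean FPKM, and the fewest fragments behind it apart from SERPING1. A second row of the table carries the name CFB and held 0 fragments in every library.

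Since the deposited FPKM could be turned back into whole fragments, the ratio of the depth-scaled fragments was also taken with a 95% exact counting interval, which covers counting error only. For CFB it was 4.55 (2.81 to 7.62), for CFI 2.23 (1.68 to 2.97), for C1S 2.09 (1.58 to 2.76), for C1R 1.97 (1.67 to 2.33) and for C3 1.91 (1.78 to 2.06). The interval of each lay above 1. Fitted with limma voom on the 14443 genes with a mean of at least 10 fragments, a setting chosen after the data were seen, the log2 fold change was 2.16 for CFB (SE 0.42, adjusted p = 6.79e-05) and 1.08 for C1S (SE 0.27, adjusted p = 0.00126). In that fit all 8 members with enough fragments were called higher, against 27.2% of the genes called higher and 22.1% lower. Since the setting was chosen after the data were seen, and the members with earlier results known, nothing is read from that count. In the limma fit on log2(FPKM + 1) without a filter, where 1.26% of all 48162 genes were called higher, the adjusted p was 0.181 for C1S and 0.239 for CFB, and among the members C3 was called (adjusted p = 0.0251).

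**Figure D2:**
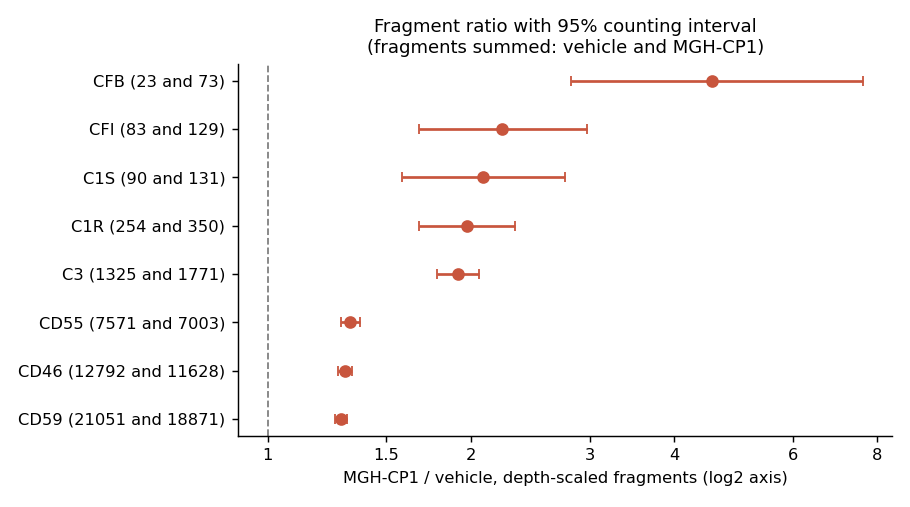
Ratio of depth-scaled fragments, MGH-CP1 over vehicle control, on a log2 axis for 8 members, with 95% exact counting intervals; the fragments summed over the 2 vehicle and the 2 MGH-CP1 libraries stand beside each name, and the dashed line marks a ratio of 1. The 5 secreted members lie between 1.91 and 4.55 and the 3 membrane regulators between 1.28 and 1.33.

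Among the membrane regulators, CD59 (ENSG00000085063, minus strand of chromosome 11, 33719807 to 33757991) blocks the assembly of the membrane attack pore and was the most abundant member. It had 113 and 110 FPKM in vehicle and 145 and 140 FPKM after MGH-CP1. The log2 fold change of CD59 was 0.36 (SE 0.05, adjusted p = 5.01e-04 from limma). CD55 (ENSG00000196352, plus strand of chromosome 1, 207494853 to 207534311), the decay-accelerating factor that takes the C3 convertases apart, had 55.8 and 51.8 FPKM in vehicle and 74.6 and 67.9 FPKM after MGH-CP1. For CD55 the log2 fold change was 0.40 (SE 0.06, adjusted p = 0.00123 from limma). CD46 (ENSG00000117335, plus strand of chromosome 1, 207925402 to 207968858), a cofactor for the cleavage of C3b and C4b, had 32.5 and 31.6 FPKM in vehicle and 43.7 and 39.8 FPKM after MGH-CP1. For CD46 it was 0.37 (SE 0.06, adjusted p = 0.00138 from limma).

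In all 3 regulators the lower MGH-CP1 library was above the higher vehicle library, as it was for 39.9% of genes. Without MGH-CP1 replicate 2 the log2 fold changes were 0.38 for CD59, 0.47 for CD55 and 0.43 for CD46 (adjusted p of 0.00343, 0.00272 and 0.00279 from limma). Their ratios of mean FPKM were close together, at 1.28 for CD59, 1.30 for CD46 and 1.32 for CD55. Of the genes tested, 15.4% had a larger log2 fold change than CD55, 17.1% than CD46 and 17.8% than CD59. The proportions among them moved little: CD59 was 2.02 and 2.12 times CD55 in vehicle and 1.95 and 2.06 times after MGH-CP1, and CD55 was 1.72 and 1.64 times CD46 in vehicle and 1.71 and 1.71 times after it. Summed over the 3 regulators, the level was 201 and 193 FPKM in vehicle and 264 and 248 FPKM after MGH-CP1. Summed over the 6 secreted members it was 8.60 and 8.81 FPKM in vehicle and 17.4 and 17.4 FPKM after MGH-CP1. The regulators thus held 23.4 and 21.9 times the RNA of the secreted members per length in vehicle and 15.2 and 14.2 times after MGH-CP1. These ratios did not overlap, although the smallest two-sided p of an exact permutation test with 2 libraries a group is 0.333.

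**Figure D3:**
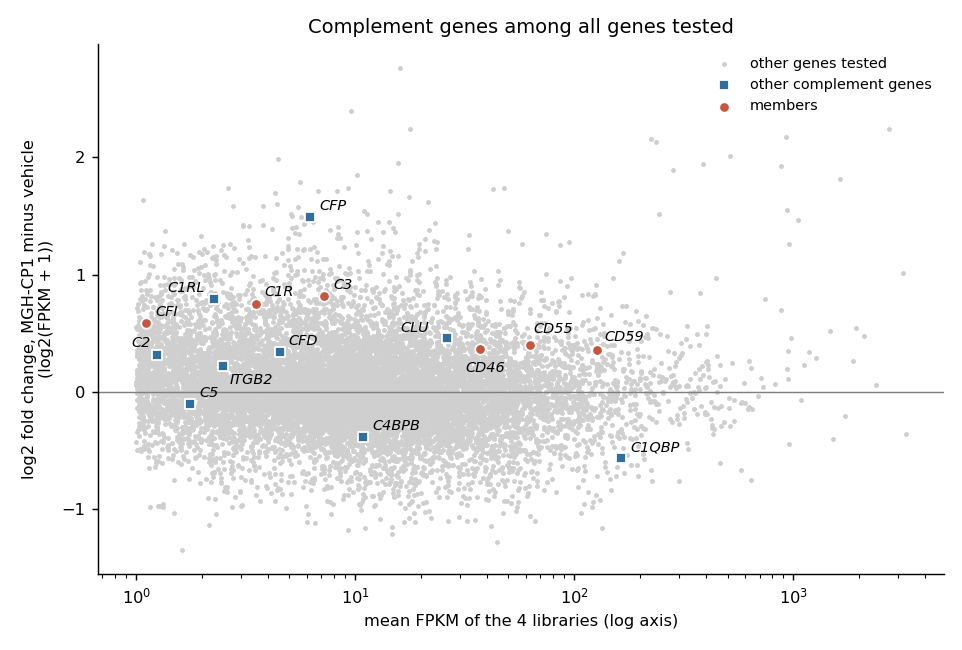
Log2 fold change (MGH-CP1 minus vehicle control, log2(FPKM + 1)) against the mean FPKM of the 4 libraries on a log axis, for the 12080 genes tested (grey), the 6 members tested (circles) and 9 other complement genes (squares). The members lie between 0.36 and 0.82, all above 0, while the other complement genes lie on both sides of 0.

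Several members share their place in the genome with other genes, and the sources used here do not say whether fragments were counted by strand. C1R overlaps its relative C1RL on the same strand, which had 124 and 117 fragments in vehicle and 196 and 184 after MGH-CP1. C1S overlaps LPCAT3 on the opposite strand, which held 888 to 1035 fragments per library against 37 to 66 on C1S, so the values of C1S are uncertain. CFB overlaps C2 on the same strand, with 80 and 65 fragments on C2 in vehicle and 78 and 73 after MGH-CP1. C3 overlaps GPR108 on the same strand, which held 1204 to 1308 fragments per library and was itself called higher (log2 fold change 0.44, adjusted p = 3.21e-04 from limma). LPCAT3 was called higher too, with a log2 fold change of 0.33 (adjusted p = 0.0023 from limma). CD59 overlaps C11orf91, which had at most 17 fragments.

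Promoter sequence was taken from RefSeq (GRCh38.p14, a build other than that of the deposited table) for the 6 members found in the promoter table: C1R, CFB, CFI, CD46, CD55 and CD59. The 250 bases before the first listed start of each were searched on both strands for the TEAD motif GGAATG, the factor family that MGH-CP1 targets. The search also took in a STAT motif (TTC, any 3 bases, GAA), an interferon-stimulated response element (GAAA, any 2 bases, GAAA) and an NF-kB motif (GGG, any 5 bases, CC), since interferon, interleukin-6 and NF-kB signaling are known inducers of complement genes. The windows of C1R, CFB and CD59, which hold the TEAD, STAT and interferon-response matches found, are printed 5′ to 3′ on the gene's own strand, with matched bases in capitals.

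C1R, chr12:7092446-7092695, minus strand, with 3 TEAD matches in capitals: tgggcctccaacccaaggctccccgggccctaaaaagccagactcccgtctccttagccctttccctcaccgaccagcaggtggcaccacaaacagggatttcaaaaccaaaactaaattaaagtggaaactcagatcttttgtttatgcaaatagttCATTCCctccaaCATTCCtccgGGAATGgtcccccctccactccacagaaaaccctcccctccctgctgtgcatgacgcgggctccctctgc
CFB, chr6:31945845-31946094, plus strand, with the STAT, interferon-response and NF-kB matches in capitals: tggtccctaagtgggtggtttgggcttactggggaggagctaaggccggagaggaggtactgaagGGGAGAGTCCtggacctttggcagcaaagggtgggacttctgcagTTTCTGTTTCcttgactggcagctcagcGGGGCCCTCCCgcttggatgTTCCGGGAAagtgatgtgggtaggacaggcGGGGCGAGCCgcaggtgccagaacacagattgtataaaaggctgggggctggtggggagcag
CD59, chr11:33736480-33736729, minus strand, with the STAT match in capitals: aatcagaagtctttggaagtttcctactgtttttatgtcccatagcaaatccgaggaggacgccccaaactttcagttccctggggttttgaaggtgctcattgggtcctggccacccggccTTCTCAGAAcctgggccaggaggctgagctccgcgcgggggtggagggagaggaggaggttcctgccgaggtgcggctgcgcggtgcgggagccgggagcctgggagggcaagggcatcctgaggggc

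The TEAD motif was found in the window of 1 member, C1R, at 3 places between 92 and 65 bases before the start. Of 35116 promoter windows of the same length 11.9% held at least 1 match and 0.0826% at least 3, a count chosen after the matches were seen. The window of the other listed start of C1R held no TEAD match, 1 STAT match and 1 NF-kB match. CFB held the STAT motif 92 to 84 bases before its start, the interferon-response motif at 140 to 131 bases and 4 NF-kB matches, of which 2 overlap each other. These motifs occur in 6.57%, 3.02% and 54.4% of all windows. CD59 held a STAT match at 128 to 120 bases, and of its 3 other listed starts 1 held a STAT match and 2 held NF-kB matches. In their first windows CD46 held 3 NF-kB matches, CD55 held 1, and no match lay in the CFI window. A match is a description of letters and shows no binding.

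Beyond the 9 members, 44 other complement genes of a list of 45 had a row, and 10 of them were tested: 4 were called higher (CFP, C1RL, CLU, CFD), 2 lower (C1QBP, C4BPB) and 4 neither, beside 27.1% higher and 23.8% lower among all genes tested. Their median log2 fold change was 0.27, beside 0.014 over all genes tested. CFP, which encodes properdin, the stabilizer of the alternative-pathway convertase that CFB forms, rose most, from 3.06 and 2.52 FPKM to 10.1 and 9.14 FPKM (log2 fold change 1.49, SE 0.10, adjusted p = 2.89e-05 from limma). CFD, the protease that activates factor B, had 3.51 and 4.21 FPKM in vehicle and 5.64 and 4.66 FPKM after MGH-CP1 (log2 fold change 0.34, adjusted p = 0.0346 from limma). The call of CFD was lost in the voom fit on genes with a mean of at least 10 fragments (adjusted p = 0.0580 from limma voom). Without the filter CFD and CLU were not called (adjusted p of 0.478 and 0.123 from limma). CFP and C1RL were called in both of these fits. C1RL, a protease related to C1R, rose by a log2 fold change of 0.79 (adjusted p = 4.62e-04 from limma). CLU, the secreted chaperone clusterin that also keeps the terminal complex from membranes, rose by a log2 fold change of 0.46 (adjusted p = 8.27e-04 from limma).

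C1QBP, which encodes a mitochondrial protein that binds C1q, fell from 195 and 195 FPKM to 131 and 132 FPKM (log2 fold change -0.56, adjusted p = 5.27e-05 from limma). C4BPB, the beta chain of the C4b-binding protein, fell from 12.5 and 12.4 FPKM to 9.01 and 9.62 FPKM (log2 fold change -0.38, adjusted p = 0.00185 from limma), while the alpha chain C4BPA had at most 2 fragments in a library. C2 of the classical convertase, the pore initiator C5 and ITGB2, a subunit of complement receptor 3, were not called, with log2 fold changes of 0.32, -0.10 and 0.22 (adjusted p of 0.0614, 0.548 and 0.132 from limma). C4A and C4B, a near-identical gene pair between which fragments may be split, were both under the filter. C4A had 0.424 and 0.258 FPKM in vehicle and 0.946 and 0.896 FPKM after MGH-CP1, and C4B had 0.410 and 0.460 FPKM in vehicle and 0.814 and 1.00 FPKM after it. The subunits of C1q (C1QA, C1QB, C1QC), to which C1r and C1s bind, and the pore components C6, C8A, C8B and C9 had 0 fragments in every library, while C7 had at most 2 and C8G at most 15.

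Some markers of other cell types moved with these genes. Of the 4 macrophage markers CD14 and CSF1R were called higher (adjusted p of 0.00715 and 6.30e-04 from limma), and the 4 summed to 3.73 and 3.03 FPKM in vehicle and 6.91 and 6.12 FPKM after MGH-CP1. The pan-leukocyte marker PTPRC stayed at or below 0.0321 FPKM and CD163 had no fragment. The 4 fibroblast markers (COL1A1, LUM, DCN, PDGFRB) summed to 3.02 and 2.83 FPKM in vehicle and 3.60 and 3.64 FPKM after MGH-CP1, and neither of the 2 tested was called. The part of these markers in the rise of the members was not tested.

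Cytokine and NF-kB signaling is known to induce complement genes, and 16 genes were listed for it. The list does not separate genes that promote this signaling from genes that restrain it. All 16 were tested, and 9 were called higher, 3 lower and 4 neither, beside 27.1% higher and 23.8% lower among all genes tested. Their median log2 fold change was 0.25, beside 0.014 over all genes tested. STAT2, a subunit of the interferon-activated transcription factor complex, rose from 12.2 and 14.1 FPKM to 26.2 and 25.7 FPKM (log2 fold change 0.93, SE 0.07, adjusted p = 5.43e-05 from limma). CEBPD and CEBPB, acute-phase transcription factors, rose by log2 fold changes of 0.80 and 0.44 (adjusted p of 6.05e-05 and 8.88e-04 from limma). IFNGR1, the ligand-binding chain of the interferon-gamma receptor, rose by 0.45 (adjusted p = 5.04e-04 from limma). Among those called lower were NFKB1 (-0.38), an NF-kB subunit, and IL6ST (-0.24), the shared receptor of the interleukin-6 family. The list thus held genes on both sides, and its part in the rise of the members was not tested.

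CD55 and CD59 are held in the membrane by a glycosylphosphatidylinositol (GPI) anchor, whereas CD46 spans it. Of 25 genes listed for the assembly of that anchor 23 were tested, of which 6 were called higher, 4 lower and 13 neither, with a median log2 fold change of 0.0083. Against 27.1% higher and 23.8% lower among all genes tested, this list did not have a larger share called in either direction. PIGW, an acyltransferase of the pathway, fell from 10.1 and 10.2 FPKM to 4.95 and 5.78 FPKM (log2 fold change -0.81, SE 0.08, adjusted p = 1.61e-04 from limma). PIGU, a transamidase subunit, fell by 0.49 on the log2 scale (adjusted p = 0.00145 from limma). PIGQ, part of the enzyme that starts the anchor, rose by 0.53 (adjusted p = 2.25e-04 from limma). DPM3, a subunit of the enzyme that supplies its mannose, rose by 0.45 (adjusted p = 3.07e-04 from limma).

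**Figure D4:**
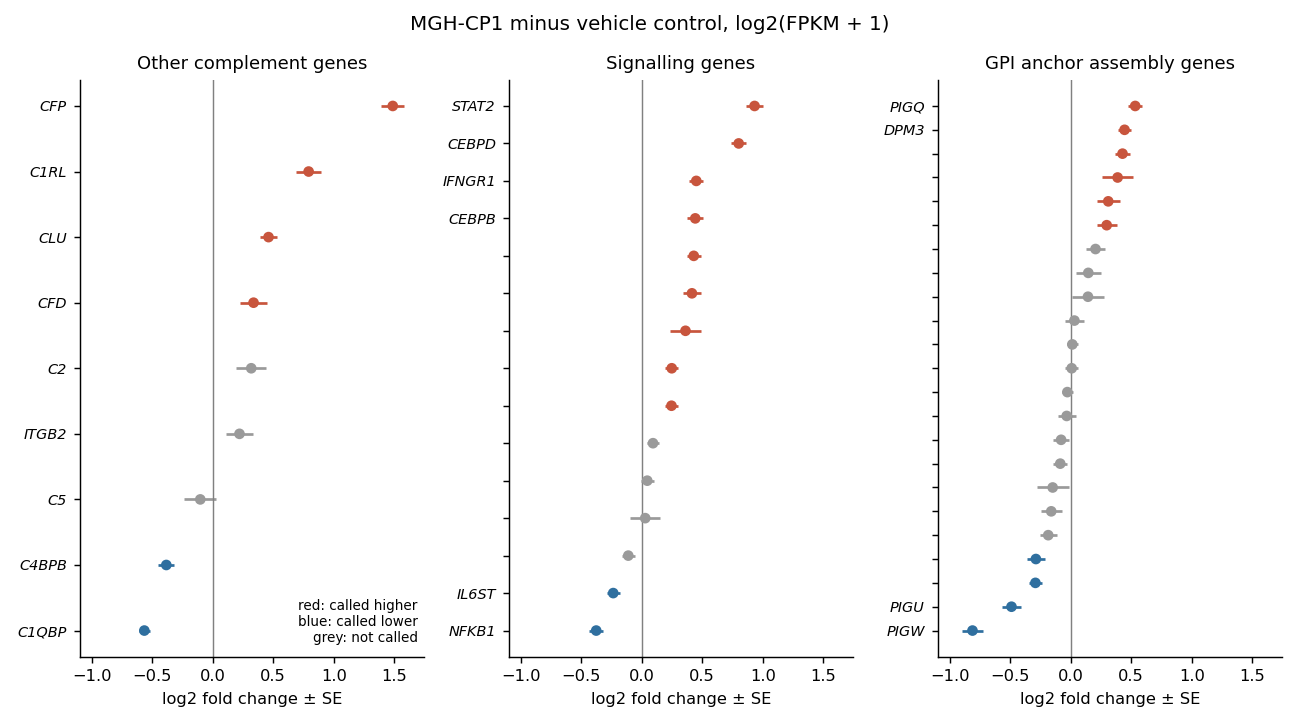
Log2 fold change ± SE (MGH-CP1 minus vehicle control, log2(FPKM + 1)) of tested genes of 3 lists, with 9 other complement genes, 15 signaling genes and 23 GPI anchor assembly genes, of which those described in the text are named; red marks genes called higher, blue lower and grey not called. Called genes stand on both sides of 0 in each panel, from -0.81 for PIGW to 1.49 for CFP.

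On the log2(FPKM + 1) scale C3 had the largest log2 fold change of the members tested. That rank depended on the scale: with a pseudocount of 0.1 it was 0.92 for C3, 0.95 for C1R and 1.05 for CFI. The genes whose log2(FPKM + 1), centred per gene, lay nearest to that of C3 over the 4 libraries were THBD, the thrombin receptor thrombomodulin (Euclidean distance 0.0144), H6PD (0.0296), CNTNAP1 (0.0332), PYROXD2 (0.0343) and IDUA (0.0372). Their log2 fold changes were 0.78 to 0.83. With 4 libraries and so many genes, closeness of this kind is a description only.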

How the data were processed

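RNA-seq of MDA-MB-231 cells, 2 vehicle control and 2 MGH-CP1 libraries, was analyzed. The authors deposited FPKM values per gene, with gene length, for 48162 genes. The submitters' processing notes name CASAVA 1.8, STAR and hg19; the counting tool and its strand setting are not given in the sources used here. FPKM times length was a whole multiple of a single step per library for 100% of the values (within 0.01), which gave fragments. Columns were matched to samples by compound and replicate number in the titles, DMSO being the vehicle. For the 12080 genes whose mean reached 1 FPKM, log2(FPKM + 1) was fitted in limma 3.58.1 under R 4.3.3 (eBayes with a trend, two-sided, Benjamini-Hochberg over all genes tested, threshold 0.05). The study's per-gene test was not taken, since 2 libraries against 2 leave little to estimate a gene's own variance. The procedure was tested on simulated data. No library was left out of the main comparison.

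The members and lists were chosen with earlier results of these data known. Genes were named as follows: the 9 members, the other complement genes that were tested, cell type markers and genes overlapping a member. Also named were the 4 called signaling and 4 called GPI anchor genes with the largest change. The 5 genes nearest to C3, the member with the largest log2 fold change on the main scale, were named too. C4A, C4B, C4BPA, C7, C8G, the genes at 0, NFKB1 and IL6ST were named after their values were seen. Some listed genes, though counted with their lists, are not reported here.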

Additional observations from a re-analysis of the deposited data

How the results depend on the processing

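The 6 members tested, CFI among them only through its values after MGH-CP1, were higher under every alternative in which they could be fitted. The calls of C1R, C3, CD46, CD55 and CD59 held with a pseudocount of 0.1, median-ratio scaling and quantile normalization. They also held in limma without the trend and in limma voom on recovered fragments. Nothing is read from the calls of CFI in these settings, which kept the same filter. With a mean FPKM of at least 5, C1R and CFI could not be fitted. Without the filter on low values the log2 fold changes stayed at 0.75 for C1R, 0.59 for CFI, 0.37 for CD46, 0.40 for CD55 and 0.36 for CD59, and the calls were lost (adjusted p from limma of 0.0723, 0.0654, 0.123, 0.151 and 0.0591), so 1 member was called. Over all 48162 genes, 605 were called higher and 490 lower without the filter. Without shared variance between genes none was called, that is 0 of 6, beside 9 higher and 4 lower of the 12080 genes tested. The adjusted p from this ordinary t test per gene was 0.0555 for C3 at 0.82 and 0.0585 to 0.113 for the others. In that t test 4947 of the 12080 genes had an unadjusted p under 0.05. The scale moved the value for CFI most: 1.05 with a pseudocount of 0.1, 1.15 with voom and 0.42 with quantile normalization. Leaving out single libraries gave log2 fold changes of 0.68 to 0.82 for C1R, 0.79 to 0.84 for C3, 0.56 to 0.61 for CFI, 0.30 to 0.43 for CD46, 0.33 to 0.47 for CD55 and 0.33 to 0.38 for CD59.

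Of the other complement genes, 2 were called higher and 1 lower without the filter, 2 higher with a mean FPKM of at least 5, and 0 without shared variance. Of the signaling genes 1 was higher and 0 lower without the filter and 0 without shared variance, and 1 to 3 were lower with libraries left out, 1 of them without MGH-CP1 replicate 1. Of the GPI anchor genes 2 were higher and 0 lower without the filter, 3 higher with quantile normalization, 0 without shared variance, and 3 to 5 higher with libraries left out, 3 without vehicle control replicate 1. Over all genes, calls also fell without the filter (605 higher, 490 lower) and without shared variance (9 higher, 4 lower). The cause was not tested, except that fewer genes are tested at the higher filter. In the voom fit on genes with at least 10 fragments, C1S (1.08) and CFB (2.16) were also called. The replicate number as a block left each log2 fold change as it was. C1R, C3, CD46, CD55 and CD59 stayed called, with 3466 genes higher and 3052 lower in all. Same-numbered libraries had a correlation of deviations of 0.0777, and the labels give no shared batch, so the numbers were not taken as pairs. Replicates of a group differed by more than sampling noise.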
